A study of Mus musculus with 6 samples.

Results

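Zbtb16-positive CD4 T cells of the normal mouse kidney were the subject of this description. They were taken from the library of CD4 cells sorted from normal kidneys, as barcodes with at least 500 detected genes, at most 20% mitochondrial counts, at least 1 unique molecular identifier (UMI, 1 counted transcript molecule) of Cd3d, Cd3e or Cd3g, at least 1 UMI of Zbtb16 and no UMI of Foxp3 or Ccr7. The rule found 3146 cells among 9518 Cd3-positive barcodes of the library, which was 33.1% (95% interval 32.1 to 34.01%, exact Clopper-Pearson), and among 54039 deposited barcodes of the series. The remaining 6372 Cd3-positive barcodes are called the other CD4 cells below.

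The series comprised T cells in 6 libraries for single-cell RNA sequencing, from the kidneys of male wild-type C57BL/6J mice aged 7 to 8 weeks. Mice were normal (control) or had both renal pedicles clamped for 30 min followed by reperfusion (IR). Live CD45-positive, T cell receptor beta-positive kidney cells were sorted into CD4, CD8 and double negative (DN, neither CD4 nor CD8) cells, with 1 library for each sorted subset and condition. The sources used here do not give how many mice went into a library, and no difference below has a replicate check, no test was run, and every interval covers counting error only.

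Zbtb16 encodes PLZF, the transcription factor that directs innate-like T cells such as invariant natural killer T (NKT) cells and mucosal-associated invariant T (MAIT) cells. Such cells leave the thymus already able to make cytokines, carry receptors shared with natural killer cells, and recognise lipids or vitamin metabolites rather than peptides. Invariant NKT cells of the mouse use an alpha chain that joins the variable segment Trav11 to the joining segment Traj18, paired with beta chains that use mainly the Trbv13, Trbv29 and Trbv1 segments, and MAIT cells use Trav1 joined to Traj33. The germline segments on which the receptor results below turn were read from GENCODE M21 transcripts of the mm10 build. For the variable segments the last 90 bases are shown, with the codon of the conserved cysteine that opens the third hypervariable loop in capitals, and for Traj18 the whole segment, with the codons of its conserved phenylalanine-glycine motif in capitals.
Trav11 (chr14:53519303-53519859, plus strand): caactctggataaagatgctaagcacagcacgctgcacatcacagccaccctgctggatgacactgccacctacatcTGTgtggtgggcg
Traj18 (chr14:54200777-54200842, plus strand): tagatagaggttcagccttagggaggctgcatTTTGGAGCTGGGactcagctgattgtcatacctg
Trbv13-2 (chr6:41121396-41121832, plus strand): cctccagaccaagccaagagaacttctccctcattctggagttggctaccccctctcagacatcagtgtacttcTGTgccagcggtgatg
Trbv29 (chr6:41271394-41271881, plus strand): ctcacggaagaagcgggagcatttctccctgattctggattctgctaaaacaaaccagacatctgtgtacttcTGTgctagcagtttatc

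Depth was similar on both sides of the main comparison and unlike between conditions. The Zbtb16-positive cells had a median of 8156.5 UMIs and the other CD4 cells 6875, whereas IR CD4 cells chosen by the same rule had a median of 2480 and the other IR CD4 cells 2435. Levels are given as CPM, UMIs scaled to a fixed total for each class over all genes except mitochondrial genes, ribosomal protein genes and Malat1, summed over the cells of a class (22923103 UMIs in Zbtb16-positive cells and 35778867 in the other CD4 cells). Between control libraries, 134 cell barcodes of the control CD4 library also occurred in another control library, and 18 of them were Zbtb16-positive cells. The files of the control libraries name Cell Ranger 5.0.1 and those of the IR libraries 6.0.1, so condition, library and software version cannot be told apart.

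Zbtb16 itself was the gene used to choose the cells, and its values are a description. Of the 3146 cells, 923 (29.3%) held 1 Zbtb16 UMI, 671 (21.3%) held 2, 958 (30.5%) held 3 to 5 and 594 (18.9%) held 6 or more, with a median of 2 and a maximum of 71. Cells with more Zbtb16 UMIs were also deeper, with a median of 7047 UMIs per cell at 1 Zbtb16 UMI and 11075 at 6 or more. In cells that should lack the gene, a Zbtb16 UMI was found in 8.60% of 756 Ccr7-positive CD4 cells of the same library (median 8319 UMIs) and in 0.114% of 1750 Ccr7-positive cells of the control CD8 library (median 9820 UMIs). In IR CD4 it was found in 1.97% of 2130 Ccr7-positive cells (median 2806.5 UMIs). In the clusters described below, it was found in 1.33% of the 750 cells of the Ccr7-rich cluster 16 and in 62.3% of the 260 deep cells of cluster 3, where Ccr7 was in 28.1%. The share of CD4 cells meeting the rule was 23.4% when 2 Zbtb16 UMIs were required. A further 99 CD4 cells held Zbtb16 together with Foxp3 or Ccr7 and were outside the rule, and these had a median of 16063 UMIs.

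The share of Zbtb16-positive cells differed widely between the sorted subsets and between conditions. By the same rule it was 59.4% of 9309 control DN cells, 0.485% of 9685 control CD8 cells, 8.76% of 10301 IR CD4 cells (95% interval 8.22 to 9.32%) and 11.9% of 3951 IR DN cells. When every cell was thinned to 1000 UMIs to remove the difference in depth, the share was 11.97% in control CD4, 4.22% in IR CD4, 15.4% in control DN, 7.06% in IR DN and 0.0833% in control CD8. Control CD4 was above IR CD4 at this fixed number of UMIs too. The thinned UMIs included ribosomal protein genes, which took 15.8% of UMIs in control and 28.3% in IR Zbtb16-positive cells (17.4% and 36.0% in the other cells), so the remaining depth was lower in IR. Zbtb16 also has 176643 bp of intronic sequence, within the tenth of genes with the most, whose median log2 ratio of control over IR was 0.70. The part of these in the difference between conditions was not tested. A share of sorted cells does not tell fewer such cells from more cells of other kinds.

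The other markers named with these cells, Il21 and Klrb1f, were found in a minority of them. Il21, on chr3:37222759-37232636, encodes a cytokine that helps B cells and other lymphocytes, and it was detected in 79 cells, or 2.51%, against 0.612% of the other CD4 cells and 0.835% of 719 Ccr7-positive, Foxp3-zero CD4 cells (median 8277 UMIs). Its level was 12.3 CPM (95% interval 10.9 to 13.9, exact Poisson) against 3.86 CPM, but the Ccr7-positive cells were at 10.4 CPM from 6 cells. After thinning, Il21 was in 0.637% of Zbtb16-positive cells and 0.127% of the others.
Klrb1f, on chr6:129045901-129057464, encodes a receptor of the NKR-P1 family, and was found in 13.8% of Zbtb16-positive cells, 6.11% of the other CD4 cells and 1.81% of the Ccr7-positive cells. It was at 31.0 CPM (28.7 to 33.3) and 14.4 CPM in the first 2 of these, and at thinned shares of 2.10% and 0.998%. Against the 5255 other CD4 cells with no UMI of Zbtb16, Foxp3 or Ccr7 the log2 ratio of Klrb1f was 0.90, below 2-fold. The cells are therefore named here by Zbtb16 and not by Il21 or Klrb1f.

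To learn which genes differed, a gene was called where it reached 10 CPM in the higher class and differed at least 2-fold. Among 8859 genes that reached 10 CPM, 135 (1.52%) were higher and 176 (1.99%) lower in Zbtb16-positive cells than in the other CD4 cells, and the median log2 ratio of all of them was -0.0055. Il4, the cytokine of type 2 responses that innate-like T cells release rapidly, had the largest ratio among genes at 50 CPM or more other than Zbtb16 itself. It lies on chr11:53602982-53618669 and was at 205 CPM (199 to 211) against 26.8 CPM (25.2 to 28.6), a log2 ratio of 2.93, and was found in 41.4% of Zbtb16-positive cells, 6.73% of the other CD4 cells and 4.45% of Ccr7-positive cells. After thinning the first 2 shares were 11.4% and 1.504%.

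The 11 genes that followed Il4 fell into a few kinds. Transcripts of the T cell receptor gamma locus were Tcrg-C4 (74.7 against 13.0 CPM), Tcrg-C2 (93.2 against 16.6 CPM) and Trgv2 (76.6 against 14.2 CPM). Receptors of natural killer cells were Klrb1c (NK1.1, 86.9 against 19.1 CPM), Klrc2 (60.8 against 14.95 CPM), Klrc1 (NKG2A, 109 against 30.7 CPM) and Klrk1 (NKG2D, 217 against 62.8 CPM). The potassium channel subunit gene Kcnq5, on chr1:21398403-21961942, had by far the most counts of the set. It was at 2480 against 658 CPM and was detected in 90.5% of Zbtb16-positive cells, 39.1% of the other CD4 cells and 24.9% of the Ccr7-positive cells, with thinned shares of 70.2% and 23.5% in the first 2. The remaining genes were Slc35f3, a putative thiamine transporter (66.0 against 10.5 CPM), Cap2, an actin regulator (54.7 against 10.2 CPM), and Rbpms, an RNA-binding protein (51.6 against 11.96 CPM). Kcnq5 overlaps other annotated genes, so its counts are uncertain to that extent.

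**Figure D1:**
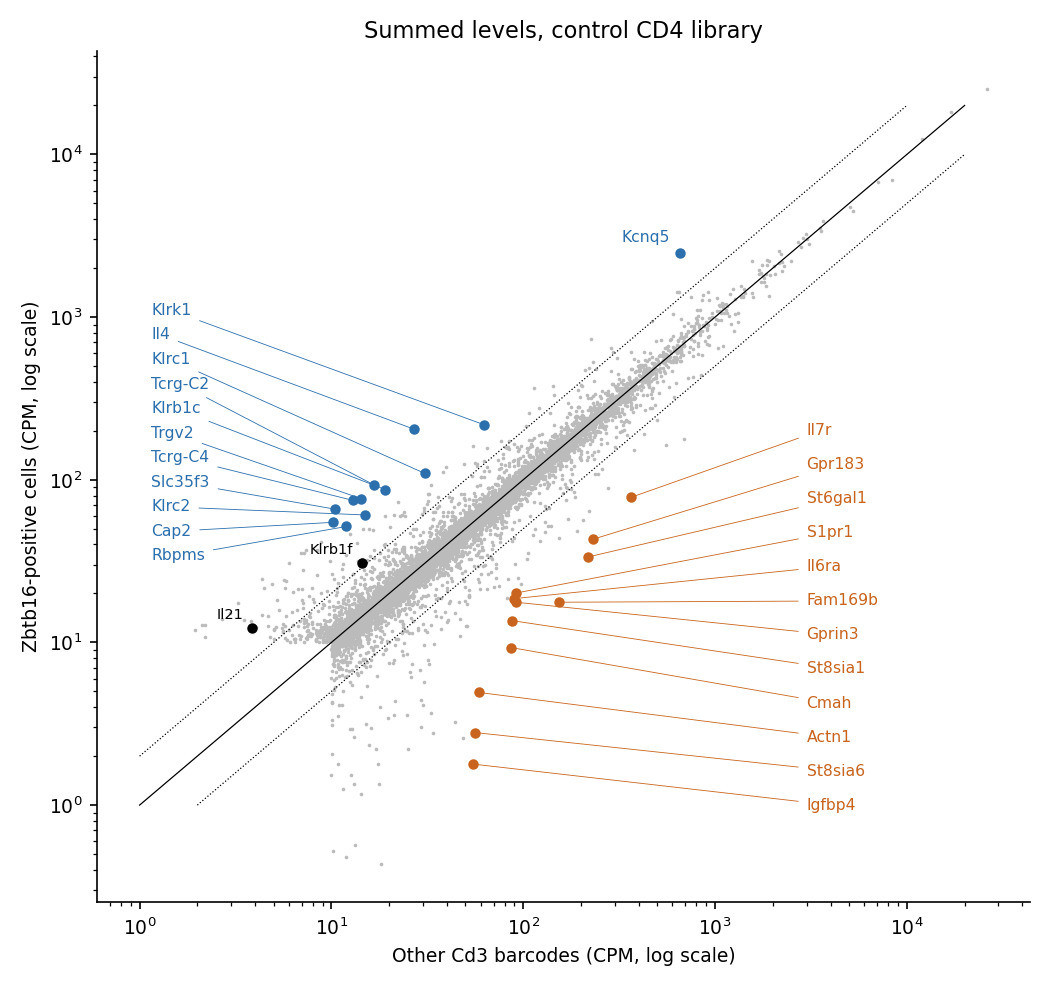
Summed level of each gene in the other CD4 cells (horizontal axis, CPM, log scale) and in Zbtb16-positive cells (vertical axis, CPM, log scale) of the control CD4 library. Each point is a gene, and the labelled genes off the diagonal include Il4 (205 against 26.8 CPM) and Kcnq5 (2480 against 658 CPM) above it and Il7r (77.8 against 363 CPM) below it.

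With the genes of the rule left out, Ccr7 among them, several of the 12 genes with the largest ratios in the opposite direction are known from naive and recirculating T cells. Igfbp4 was at 1.79 against 54.4 CPM, Actn1 at 4.93 against 58.5 CPM, and the sphingosine receptor gene S1pr1, which lets T cells leave tissue, at 20.1 against 91.5 CPM. Il7r, the receptor for the survival cytokine IL-7, was at 77.8 against 363 CPM and was found in 22.0% of Zbtb16-positive and 48.9% of the other CD4 cells (4.46% and 19.98% after thinning). The sialyltransferase genes St8sia6 (2.79 against 56.2 CPM), St6gal1 (33.5 against 217 CPM) and St8sia1 (13.6 against 87.6 CPM) and the sialic acid hydroxylase Cmah (9.29 against 86.8 CPM) were among the 12, and no list of such genes was made. The oxysterol receptor Gpr183 (43.1 against 230 CPM), the IL-6 receptor Il6ra (18.6 against 89.2 CPM), Gprin3 (17.7 against 91.6 CPM) and Fam169b (17.7 against 154 CPM) completed the set.

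Because the rule removed every cell with a Ccr7 UMI, part of this difference was fixed by the choice of cells. Against the 5255 CD4 cells with no UMI of Zbtb16, Foxp3 or Ccr7, 147 of 8840 genes (1.66%) were higher and 135 (1.53%) lower. In that comparison the log2 ratio was 2.86 for Il4, 1.83 for Kcnq5, -1.91 for Il7r and -2.64 for Igfbp4.

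Of 19 genes for natural killer receptors and their adaptors, 12 reached 10 CPM in either class, some of them only in the Zbtb16-positive cells, and of these 9 were called higher and none lower. The summed level of all 19 was 1365 against 909 CPM. Beside those named above, Klrd1 (CD94) was at 120 against 39.8 CPM, Klre1 at 46.7 against 12.5 CPM, Klra1 at 24.6 against 4.36 CPM and Klra9 at 13.8 against 3.52 CPM. The Klra and Klrc genes are close paralogs whose reads could be split between copies. Of 9 genes of the gamma delta list, 4 reached 10 CPM in either class, and these were gamma chain transcripts. All 4 were called higher (median log2 ratio 2.46), where 1.52% of all genes were. Tcrg-C1 (35.5 against 6.93 CPM) reached 10 CPM only in the Zbtb16-positive cells, so it could not be called lower. Trdc, the delta chain constant gene, stayed below 10 CPM (0.523 against 5.45 CPM), and Trac, the alpha chain constant gene, was at 716 against 886 CPM. Of 10 genes that the study chose on these libraries as higher in kidney DN cells, 7 were called higher and none lower (median log2 ratio 1.503), while against the CD4 cells with no UMI of Zbtb16, Foxp3 or Ccr7 5 were called higher (median 1.30), and that list is not independent of these data.

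Lists of innate-like and helper T cell types held genes called in both directions, where 1.52% of all genes were higher and 1.99% lower. Of 8 measured genes of invariant NKT cells (Zbtb16 left out), 2 were called higher (Trbv13-2 and Klrb1c) and 1 lower (Slamf6), and of 4 measured genes of MAIT cells 2 were called lower (Traj33 and Il7r). None of 14 type 1 helper genes was called. Ifng was at 496 against 411 CPM and found in 73.2% of Zbtb16-positive cells, 54.5% of the others and 21.4% of Ccr7-positive cells. Its master regulator Tbx21 was at 350 against 257 CPM.
Of 4 type 2 helper genes measured, only Il4 was called, and Gata3 was at 175 against 169 CPM. Of the type 17 genes Il17a had 0 UMIs among the 3146 cells (up to 0.117% of cells with a UMI, which does not limit the share expressing the gene), and 1 gene of that list reached 10 CPM and was not called. Of 14 follicular helper genes, 2 were called higher (Il21 and Il4) and 3 lower (Tox2, Slamf6 and Tnfsf8), and Bcl6 was at 83.4 against 94.6 CPM. Of 9 regulatory T cell genes, 1 was called higher, which was Il2ra (73.7 against 32.0 CPM), and 4 lower, which were Capg, Tigit, Tnfrsf4 and Ctla4 (83.5 against 183 CPM). The rule removed Foxp3-positive cells from one side only, and against the CD4 cells with no UMI of Zbtb16, Foxp3 or Ccr7, 2 of these (Tigit and Tnfrsf4) were called lower, the median log2 ratio of the list was -0.23 instead of -0.78, and Ctla4 was at 97.7 CPM in the compared cells (log2 -0.23).
Of 11 cytokine genes, Il4, Il21 and Csf2 were called higher (Csf2, a growth factor of myeloid cells, at 35.2 against 7.21 CPM) and Il2 lower (24.5 against 57.9 CPM). Of 16 cytokine receptor genes 1 was called higher (Il2ra) and 3 lower (Il7r, Il6ra and Ifngr2). Of 5 coinhibitory receptor genes, Cd160 was called higher and Tigit and Ctla4 lower, and of 8 SLAM family genes Slamf6 was called lower. Against the CD4 cells with no UMI of Zbtb16, Foxp3 or Ccr7, Ctla4 and Slamf6 (log2 -0.62) were no longer called, so the SLAM family and invariant NKT lists then had no gene called lower.

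Of 13 tissue-resident genes, none was called higher and 1 lower (Nr4a2), with a median log2 ratio of 0.02, and Cxcr6, which holds T cells in tissue, was at 1038 against 602 CPM. Among 14 chemokines and their receptors, Ccr2 (276 against 121 CPM), Ccr9 (60.8 against 23.4 CPM) and Xcl1 (608 against 294 CPM) were called higher and Cx3cr1 lower. Of the 12 naive or recirculating genes, 8 were called lower with a median of -1.98. Klf2, which drives expression of S1pr1, was at 164 against 556 CPM, and Tcf7 at 88.7 against 276 CPM. One gene of that list went the other way, as Satb1 was at 940 against 471 CPM, and it was called higher (log2 1.56) against the CD4 cells with no UMI of Zbtb16, Foxp3 or Ccr7. Of 14 lineage transcription factors Tcf7 and Id3 were called lower, with Id3 at 3.58 against 21.2 CPM, while Id2 was at 1429 against 924 CPM.

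Few listed genes of other cell types reached 10 CPM, and those called were lower in Zbtb16-positive cells. No CD8, tubule or erythroid list gene reached 10 CPM in either class, Cd8a had 0 UMIs, and of 3 measured myeloid genes 1 (H2-Aa) was called lower. Of 3 genes of natural killer cells 1 was called lower (Gzma), and the 1 measured B cell gene and the 1 measured endothelial gene were not called. Cd4, by which the cells had been sorted as protein, was at 116 CPM in 45.6% of Zbtb16-positive cells and at 258 CPM in 65.9% of the other CD4 cells, with thinned shares of 8.91% and 18.0%. Of 11 immediate early genes, which rise when tissue is dissociated, none was called, and of 11 heat shock genes 1 was called lower (Bag3, 43.8 against 154 CPM). Of 8 cycling genes, 1 was called higher (Ccnb2, 26.4 against 13.0 CPM), and the median log2 ratio was 0.67.

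Receptor segments, which the rule did not use, were read next as shares of all UMIs of a segment type. Only 512 cells (16.3%) held any Trav UMI. Trav UMIs were 702 of 22923103 UMIs in Zbtb16-positive cells and 2809 of 35778867 in the other CD4 cells, a smaller part in the first. A share of Trav UMIs is therefore not a level, and the cause of the low count was not tested. Trav11 took 177 of 702 Trav UMIs in Zbtb16-positive cells (25.2%, 95% interval 22.0 to 28.6%) and 36 of 2809 in the other CD4 cells (1.28%, 0.899 to 1.77%). The next segments were Trav16n with 40 UMIs (5.70%) and Trav12-2 with 23 (3.28%). Trav11 and Trav11d were identical over 342 aligned bases of their spliced transcripts, so reads from these bases alone do not tell them apart. The files listed 0 UMIs of Trav11d in these cells, and how such reads were counted was not examined. Trav1, the MAIT segment, had 5 of 702 Trav UMIs in Zbtb16-positive cells and 13 of 2809 in the others, so its share was not lower. Traj33 was at 2.92 against 12.9 CPM.

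Traj18 took 1127 of 2243 Traj UMIs in Zbtb16-positive cells (50.2%) but also 1510 of 5229 in the other CD4 cells (28.9%). In cells thinned to 1000 UMIs it was found in 3.76% and 3.90% of the cells, so by itself a Traj18 UMI did not set the classes apart. Within Zbtb16-positive cells, Traj18 was found in 46.8% of the 154 cells with a Trav11 UMI and in 24.6% of those without one. This is co-detection in shallow data and does not show that the segments were joined.

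Beta chain segments differed as well. A Trbv UMI was found in 910 Zbtb16-positive cells (28.9%). Trbv13-2 took 292 of 1170 Trbv UMIs (24.96%, 22.5 to 27.5%) against 10.5% in the other CD4 cells, Trbv12-2 took 20.6% against 13.7%, and Trbv29 took 16.1% against 4.69%. The segments Trbv1, Trbv13-1, Trbv13-2, Trbv13-3 and Trbv29, a set put together after their values were seen, took 63.9% against 29.7%. Trbv13-1, Trbv13-2 and Trbv13-3 were 85.9 to 90.6% identical to each other, and Trbv29 was 74.5% identical to Trbv13-2.

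**Figure D2:**
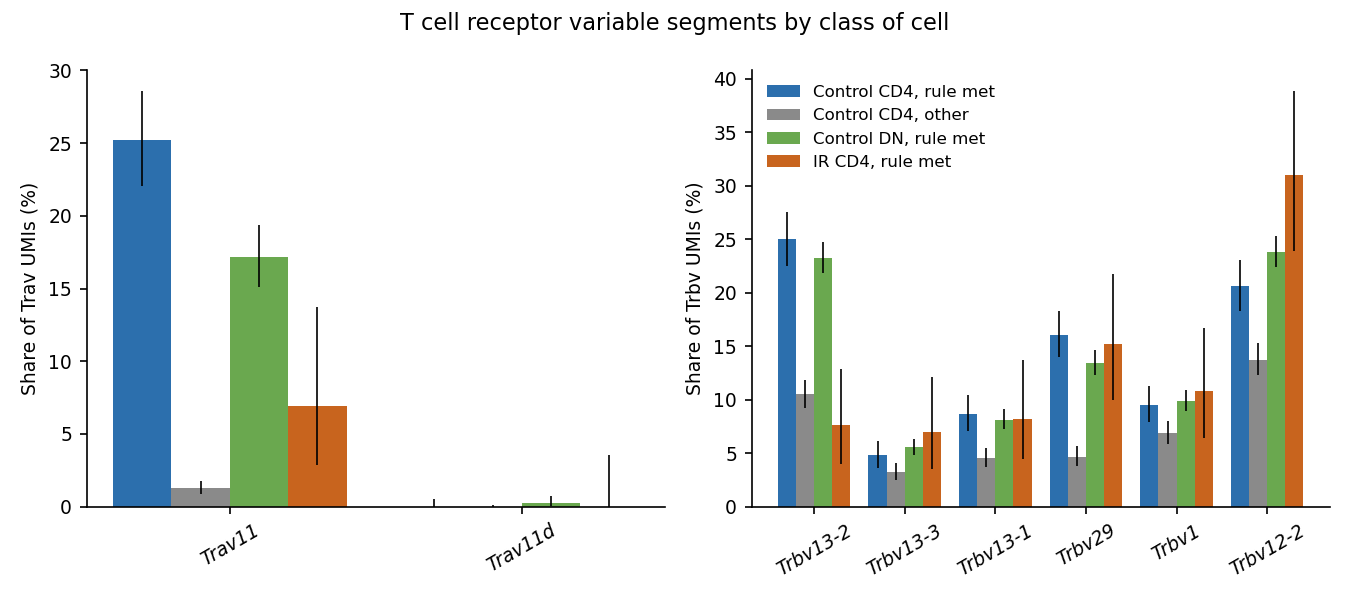
Share of Trav UMIs (left, %) and of Trbv UMIs (right, %) taken by named variable segments, with exact 95% intervals. Shown are Zbtb16-positive cells of control CD4, control DN and IR CD4, and the other Cd3-positive cells of control CD4 only. Trav11 stands at 25.2% in control CD4 Zbtb16-positive cells against 1.28% in the other CD4 cells, and Trbv13-2 at 24.96% against 10.5%.

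In DN cells the same segments were frequent on both sides of the rule. Trav11 took 213 of 1243 Trav UMIs in Zbtb16-positive DN cells (17.1%) and 106 of 839 in the other DN cells (12.6%). In IR CD4 it took 7 of 101 (6.93%, 2.83 to 13.8%) against 33 of 1523 (2.17%), and Trbv13-2 took 12 of 158 Trbv UMIs (7.59%), Trbv29 15.2% and Trbv12-2 31.0%, against 6.47%, 4.08% and 19.4% in the other IR CD4 cells. The IR counts are small and come from shallower cells, and the difference from control was not tested.

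How the cells varied among themselves was described by clustering all 9518 Cd3-positive barcodes without Zbtb16, Foxp3, Ccr7 or receptor segments. Of 17 clusters, 6 were made up by 50% or more of Zbtb16-positive cells and together held 2855 of the 3146 (90.7%). In 7 clusters with 5021 cells the share was 0.533 to 5.01%, and these held 110 Zbtb16-positive cells (3.50%). Leading genes other than the left-out genes and segments were used to form the clusters, and all are listed only to say which cells are meant.

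The largest, cluster 10, was 80.0% Zbtb16-positive (1170 of 1462 cells) and led by Slc35f3, Cap2, Ly6c1, Aqp9 and Ccr9. Cluster 12 was led by the same genes Slc35f3 and Cap2 with Adam12 and Gcnt2, was 59.9% Zbtb16-positive and shallow, with a median of 2417 UMIs. Cluster 13 (74.2%, 761 of 1025 cells) was led by Serpina3f, Spry2, Tcrg-C2, Trgv2 and Klrb1f, and cluster 11 (68.4%, 364 of 532 cells) by Klra9, Klre1, Klra1, Klrc2 and Klrc1. Cluster 9 (61.5%, 182 of 296 cells) was led by Ccl1, Nrgn, Igfbp7 and Penk, and cluster 15 (54.2%, 124 of 229 cells, median 16760 UMIs) by the cycling genes Hist1h3b, Ccna2, Hmmr and Cenpf. A further cluster, number 3, was 48.8% Zbtb16-positive with a median of 15350 UMIs, yet was led by naive genes (Igfbp4, St8sia6, Dapl1, Actn1). It held 127 of the cells, no doublet caller was run, and the part of doublets in it was not tested.

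Trav11 was unevenly spread over these clusters. It took 34.3% of Trav UMIs in cluster 10 (94 of 274, 28.7 to 40.3%), 31.9% in cluster 13, 39.4% in cluster 12 (13 of 33) and 19.0% in cluster 11, but 6.85% in cluster 9, 5.98% in cluster 15 and 7.43% in cluster 3. Over the 7 clusters poor in Zbtb16-positive cells it took 3 of 2433 (0.123%). Inside the 6 rich clusters it took 165 of 551 Trav UMIs in Zbtb16-positive cells (29.9%) and 31 of 285 (10.9%) in the 1113 cells that did not meet the rule. Those 1113 cells had a Kcnq5 level of 1829 CPM, a Klrb1c level of 80.5 CPM, an Il4 level of 100 CPM and an Il7r level of 71.7 CPM. Conversely, the 110 Zbtb16-positive cells in the poor clusters had 1 Trav11 UMI of 49 Trav UMIs, with Il4 at 33.8 CPM, Klrb1c at 12.5 CPM and Il7r at 232 CPM.

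**Figure D3:**
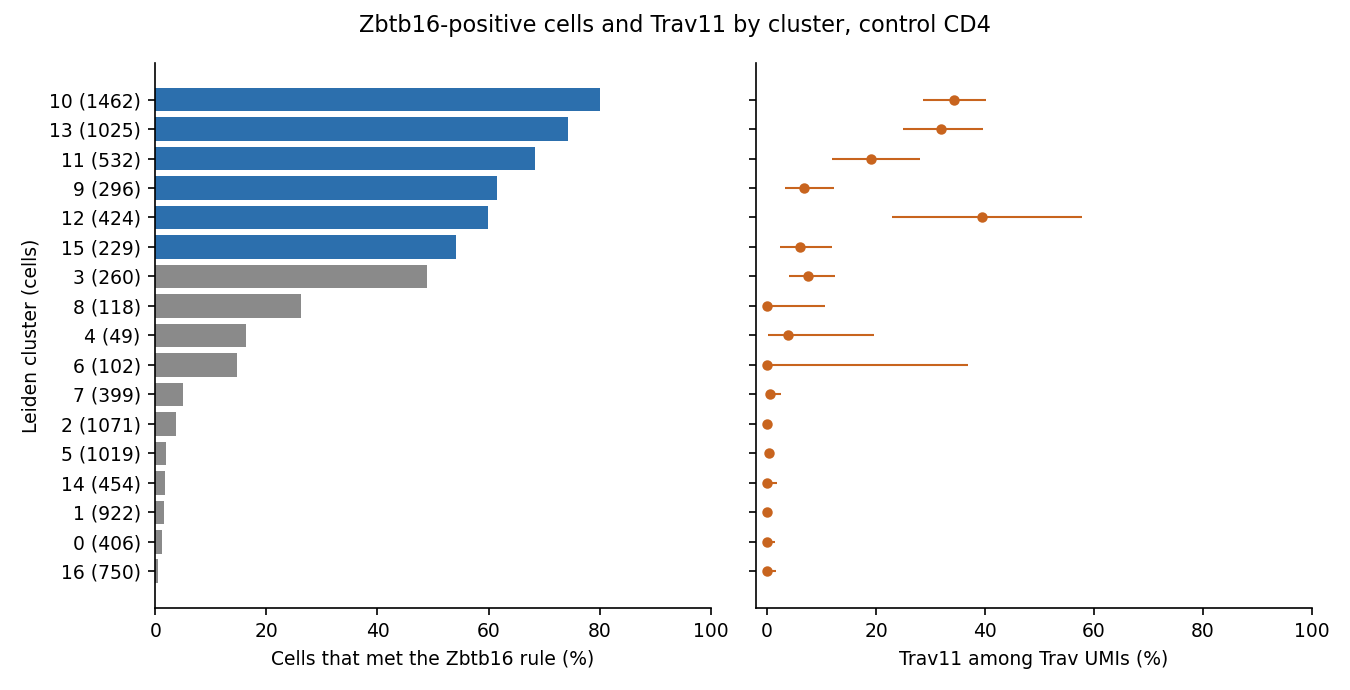
Left, share of the cells of each of 17 clusters that met the Zbtb16 rule (%, bars, with the number of cells beside the cluster number). Right, share of Trav UMIs taken by Trav11 in the same clusters (%, points with exact 95% intervals), which is 34.3% in cluster 10 and 0.123% over the 7 clusters poor in Zbtb16-positive cells.

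Levels of Il21, Klrb1f and Klrb1c differed between the clusters rich in Zbtb16-positive cells. Il21 was at 36.0 CPM in cluster 13, 23.6 CPM in cluster 9 and 25.7 CPM in cluster 15, at 0.405 CPM in cluster 10, and had no UMI in clusters 11 and 12. Klrb1f was at 66.2 CPM in cluster 13 and 9.73 CPM in cluster 10, whereas Klrb1c was at 7.02 CPM in cluster 13, 104 CPM in cluster 10 and 291 CPM in cluster 11. Klrb1c was thus the higher of these 2 lectin receptors in clusters 10 and 11 and Klrb1f in cluster 13, and both were used to form the clusters. Cluster 9 held both, with Klrb1f at 38.5 CPM and Klrb1c at 45.5 CPM. Kcnq5 was at 3502 CPM in cluster 10, 3025 CPM in cluster 11 and 942 CPM in cluster 13. The integrin gene Itga4 went the other way, at 27.2, 85.1 and 346 CPM in the same clusters. Il4 was above 89 CPM in all of them, from 89.1 CPM in cluster 15 to 314 CPM in cluster 9, where the coinhibitory receptor gene Pdcd1 was also at 146 CPM against 5.27 CPM in cluster 10.

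The Zbtb16-positive cells were also ordered by their Zbtb16 count, which sorts them by depth as well. Il4 was at 144, 156, 167 and 337 CPM in cells with 1, 2, 3 to 5 and 6 or more Zbtb16 UMIs. Il21 was at 0.931, 2.25, 3.14 and 40.3 CPM in the same order, Klrb1f at 24.8, 25.02, 25.4 and 47.2 CPM, and Klrb1c at 109, 105, 86.7 and 55.1 CPM. For Il4, Il21 and Klrb1f, then, the cells with most Zbtb16 UMIs stood apart from the rest, while Il7r was at 73.0, 90.1, 71.0 and 81.0 CPM with no order. The 5255 cells with no UMI of Zbtb16, Foxp3 or Ccr7 had Il4 at 28.2 CPM, Klrb1c at 21.5 CPM, Kcnq5 at 699 CPM and Il7r at 292 CPM. They were all such cells of the library, of many clusters, and not cells near the threshold of the rule. Zbtb16-positive cells with 1 Zbtb16 UMI had Kcnq5 at 2518 CPM and Il7r at 73.0 CPM.

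Between cells with 6 or more Zbtb16 UMIs and cells with 1, 230 of 8888 genes (2.59%) were higher and 30 (0.338%) lower. The higher genes included the interferon-induced chemokine Cxcl10 (149 against 19.6 CPM) and all 8 cycling genes of the list (median log2 ratio 1.99), such as Birc5 (95.2 against 20.3 CPM), and the lower ones included Klre1 (20.5 against 71.5 CPM), Klrd1, Klrc1 and Klrc2. The share of Trav UMIs taken by Trav11 was 21.0, 27.0, 28.3 and 25.2% from 1 to 6 or more Zbtb16 UMIs, and did not follow their number.

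**Figure D4:**
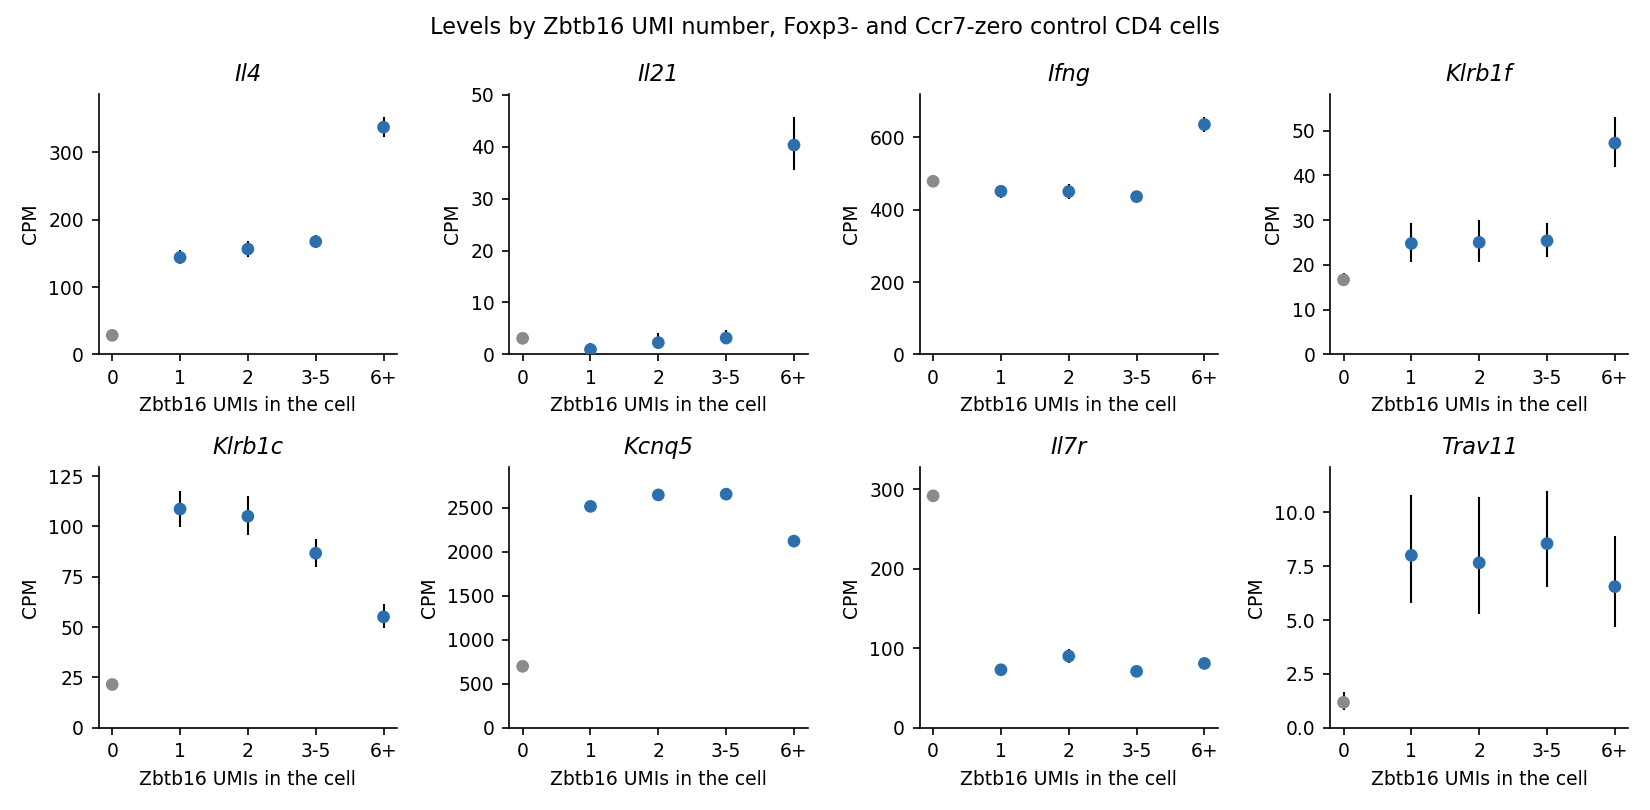
Level (CPM, with exact 95% Poisson intervals) of named genes in control CD4 cells with no Foxp3 or Ccr7 UMI, by the number of Zbtb16 UMIs in the cell, where 0 is outside the rule (grey) and 1, 2, 3-5 and 6+ are inside it (blue). Il4 stands at 28.2 CPM at 0, 144 CPM at 1 and 337 CPM at 6 or more, and Il7r drops from 292 to 73.0 CPM between 0 and 1.

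The 79 cells with an Il21 UMI differed from the rest of the Zbtb16-positive cells in several genes. Il4 was at 894 CPM in them and 178 CPM in the 3067 Zbtb16-positive cells without Il21, and Maf, a transcription factor that drives Il4 and Il21, at 1100 and 441 CPM. Kcnq5 was at 722 and 2549 CPM, Klrk1 at 18.6 and 225 CPM, and Slc35f3 had no UMI in the Il21-positive cells. Klrb1c was found in 847 Zbtb16-positive cells and Klrb1f in 433. Of the cells with Klrb1f 17.8% also had Klrb1c, against 28.4% of those without Klrb1f. Among the 154 cells with Trav11, Il4 was at 458 CPM and Ifng at 840 CPM. After thinning to 1000 UMIs, Klrb1c was in 3.03% of 66 cells with Klrb1f and 6.34% of those without, and Il4 in 45% of 20 cells with Il21 and 11.2% of those without. The levels in these subsets were not compared at equal depth.

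In IR CD4, the 902 cells meeting the rule differed from the other IR CD4 cells in 292 genes higher (3.3%) and 205 lower (2.32%) of 8842. The IR and control CD4 comparisons share no library. Of the 135 genes called higher in control CD4, 87 were also called higher in IR CD4 (64.4% of the control and 29.8% of the IR list), and of the 176 called lower 96 were (54.5% and 46.8%). Il4 was at 254 against 71.5 CPM in IR CD4, Klrb1c at 127 against 60.2 CPM and Kcnq5 at 1021 against 303 CPM. The genes of the rule (Zbtb16, Foxp3, Ccr7 and the Cd3 genes) were left out of the ranking of ratios at 50 CPM or more in IR CD4. The largest was then that of Ccl1 (393 against 17.5 CPM, with 680 of its 740 UMIs in 1 cell). In the opposite direction the largest were those of Gzma (1.06 against 98.6 CPM), Spp1 (2.13 against 69.2 CPM) and the haemoglobin gene Hbb-bs (7.98 against 138 CPM). All 4 measured erythroid genes were lower in the IR Zbtb16-positive cells (median log2 ratio -4.38, summed level 21.3 against 239 CPM), and the part of erythroid RNA in the comparison was not tested. Il7r, among the lowest genes of control Zbtb16-positive cells, was at 820 against 847 CPM in IR. In control DN cells, 7 of the 135 genes were called higher (5.19%), where 38 of 8797 genes were called in each direction (0.432%). Klrb1c was at 167 CPM in Zbtb16-positive and 252 CPM in the other DN cells.

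**Figure D5:**
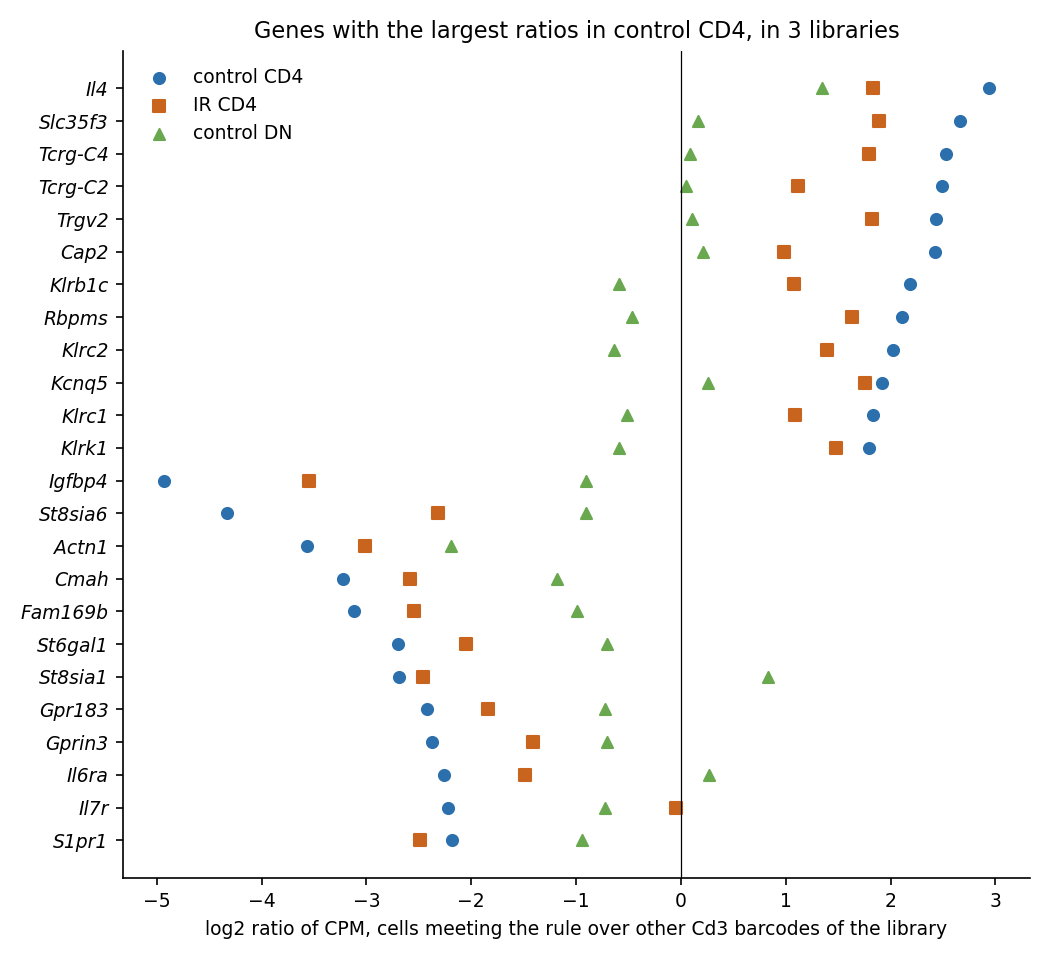
Log2 ratio of CPM between cells meeting the Zbtb16 rule and the other Cd3-positive cells of their library, for the genes with the largest ratios in control CD4, in control CD4, IR CD4 and control DN. Il4 stands at 2.93 in control CD4, 1.83 in IR CD4 and 1.35 in control DN.

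Set directly against IR cells chosen by the same rule, the control Zbtb16-positive cells had 829 genes higher (9.08%) and 670 lower (7.34%) of 9128, around a median log2 ratio of 0.15. With the mitochondrial genes, ribosomal protein genes and Malat1 kept, the split was 1386 higher and 426 lower, so directions near the threshold depend on the scaling. The higher genes numbered 446 after centring on intronic length and 1336 after thinning. Levels in control also followed gene structure, as the median log2 ratio of control over IR was -0.39 in the tenth of genes with the least intronic sequence and 0.70 in the tenth with the most. Higher in control were Cmss1 (6752 against 328 CPM), the heat shock genes Hspa1b (1348 against 137 CPM), Hspa1a (823 against 91.4 CPM) and Hsph1 (406 against 59.0 CPM), the cytokine receptor gene Il31ra (123 against 16.5 CPM) and Gm42418 (25077 against 2868 CPM). Hspa1a and Hspa1b are near-identical copies. Lower in control were Gm50306 (1.88 against 196 CPM), 4930558K02Rik (1.88 against 91.4 CPM), Apoe (2.22 against 95.7 CPM), Lrp1b (14.5 against 360 CPM), Nkain2 and Gm47371. Of 180 Apoe UMIs in IR Zbtb16-positive cells, 165 lay in 5 cells that each had at least 3 UMIs of myeloid genes.

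By list, 7 of 11 heat shock genes, 5 of 8 cycling genes and 4 of 8 SLAM family genes were higher in control, and 7 of 12 immediate early genes were lower, with Junb at 1843 against 7818 CPM and Dusp1 at 537 against 2748 CPM. Of 12 naive or recirculating genes 7 were lower in control, Il7r among them (log2 -3.40). Il4 differed less than 2-fold, at 205 against 254 CPM, and Cd4 was at 116 against 59.0 CPM.

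The library with most cells meeting the rule was control DN, with 5533 such cells at a median of 9104 UMIs, and the CD4 cells were set against these. Of 8790 genes, 20 (0.228%) were higher in the CD4 cells and 59 (0.671%) lower. Cd4 had the largest ratio, with 116 against 0.220 CPM. Il31ra was at 123 against 33.2 CPM, and the other named genes were Hist1h2ap, BE692007, Gm10076 and Gm8369, with log2 ratios of 1.48, 1.21, 1.18 and 1.16. The call was lost for Hist1h2ap without the top 5% of barcodes (0.99) and for Gm8369 after thinning (0.86), and the 20 higher genes became 12, 44 and 45 without the top 5% of barcodes, after thinning and without shared barcodes. Lower in the CD4 cells were the receptors Klra7 (6.02 against 58.3 CPM), Klra9 (13.8 against 60.0 CPM), Klra1 (24.6 against 105 CPM) and Klre1 (46.7 against 160 CPM), the adaptor Fcer1g (17.9 against 118.5 CPM) and the granzyme Gzmb (13.6 against 58.5 CPM). Of 16 natural killer receptor and adaptor genes that reached 10 CPM in either class, 11 were lower in the CD4 cells and none higher. Some of the 16 reached 10 CPM only in the DN cells, so these could not be called higher. Kcnq5 was at 2480 against 2435 CPM and Il21 at 12.3 against 8.28 CPM.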

How the data were processed

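The authors made the deposited matrices with Cell Ranger from droplet-based single-cell RNA sequencing on the mm10 genome. They hold raw UMI counts per gene and barcode, not normalized, and the submitters' processing notes name Cell Ranger 6.0.1. The study's methods name default settings, and say nothing further of intronic reads or strand. Groups came from the sample titles.

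Barcodes were filtered on genes and mitochondrial share as the study did. The study also removed the 5% of barcodes with the most UMIs as doublets, which is an alternative here, and no doublet caller was run. Mitochondrial genes, ribosomal protein genes and Malat1 (105 of 32285 features) were left out of totals. Counts were summed over cells and scaled to CPM, with a floor of 3 counts for a count of 0. With 1 library per group no test was run. Intervals are at 95%, exact Poisson for sums and Clopper-Pearson for shares, cover counting error only, and for shares cells were thinned without replacement, shallower cells being left out. Clusters came from scanpy 1.11.5 with the Leiden method of igraph. Genes of the rule were not ranked. Named genes were the 12 (members against others) or 6 (other comparisons) most extreme ratios on each side at 50 CPM or more. Genes of 29 lists, leading receptor segments and cluster genes were also named, and any other gene was chosen after its values were seen. The members and lists were chosen with earlier results of these data known. GENCODE M21 gave the coordinates and the lengths of introns, and matched 99.8% of features. The call rule was tested on simulated data. The alternatives were features kept, scaling by TMM in edgeR 4.0.16 (R 4.3.3), other CPM minima, thinning, top barcodes removed, other clustering settings and, added after the data were seen, shared barcodes removed, cluster 3 removed, barcodes with myeloid counts removed and centring on intronic length. Results that turn on some genes are not reported here.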

Additional observations from a re-analysis of the deposited data

Results flagged for a closer look

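Some genes had opposite directions in Zbtb16-positive cells of 2 libraries, and none of these differences between libraries was tested. Apoe had a log2 ratio of Zbtb16-positive over other cells of 1.63 in IR CD4 (95.7 against 30.9 CPM) and -2.94 in control CD4 (2.22 against 17.1 CPM). The antigen presentation genes H2-Eb1, H2-Ab1 and H2-Aa were at 2.07, 1.96 and 1.69 in IR CD4 and -1.07, -1.50 and -1.54 in control CD4, and Pard3 was at 1.19 and -1.59. Cells with at least 3 UMIs of 8 myeloid genes, H2-Aa among them, were 5 of 902 Zbtb16-positive (0.554%) and 37 other cells (0.394%) in IR CD4, and held 165 of 180 and 270 of 485 Apoe UMIs. In control CD4 they were 9 and 40 cells and held 11 of 51 and 471 of 611. Without these cells, a setting chosen after seeing the data, the opposite direction was lost for Apoe, H2-Aa, H2-Ab1 and H2-Eb1, at -0.77, -0.93, -1.46 and -2.16 in IR CD4 (15, 3, 3 and 2 UMIs in Zbtb16-positive cells) and -1.17, -0.94, -1.33 and -1.09 in control CD4. For H2-Aa this was partly fixed, since its UMIs helped to choose the removed cells. Pard3 kept the opposite direction, at 1.20 and -1.59.

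In control DN, Klra9 had a log2 ratio of -1.15 (60.0 against 133 CPM) where control CD4 had 1.97 (13.8 against 3.52 CPM). Ctla4 was at 1.17 in DN (57.2 against 25.4 CPM) and -1.13 in CD4 (83.5 against 183 CPM), where the other cells held 398 Foxp3-positive cells against 7 in DN. Without Foxp3-, Ccr7- and Zbtb16-positive cells among the others, Ctla4 was at -0.23 in CD4. The costimulatory receptor gene Tnfrsf4 was at 1.55 and -2.09, and the adhesion gene Alcam at 1.25 and -2.01, in the same order.

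Barcodes outside every comparison also carried Zbtb16. Of 251 control CD4 barcodes without a Cd3 UMI, 41 held a Zbtb16 UMI (16.3%, 11.98 to 21.5%, median 1560 UMIs), where a count of 0 would allow up to 1.20% (3 counts of the total). After thinning the share was 10.0%.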

How the results depend on the processing

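No paired analysis was possible because each group had 1 library and no result comes from a test, and no replicate could be left out. Of 98 alternative values of counts and shares, 63 stayed within 1.5 times (counts) or within the 95% interval (shares) of the reported value. For the genes with the most extreme ratios against the other CD4 cells, against IR cells or against DN cells, 598 ratios were made under alternatives. Of these, 596 kept their direction and side of the threshold and none reversed. These genes were picked by their ratios in the same data. Genes named only in other comparisons were not covered. Below 2-fold between CD4 and DN were Hist1h2ap (0.99, top 5% of barcodes removed) and Gm8369 (0.86, thinned to 1000 UMIs).

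Counts of called genes moved mostly with the minimum level. Zbtb16-positive against other CD4 cells gave 2987 higher and 1780 lower with no minimum, and 55 and 70 at 50 CPM. Control against IR gave 1477 and 7954 with no minimum, 405 and 321 at 50 CPM, 1386 and 426 with the left-out features kept, 1336 higher after thinning, and 446 higher after centring on intronic length. CD4 against DN gave 2767 and 1331 with no minimum, 7 and 19 at 50 CPM, and for the higher genes 12 with the top 5% of barcodes removed, 44 after thinning and 45 with shared barcodes removed. The cause was not tested.

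The share of cells meeting the rule in control CD4 was 11.97% at 1000 UMIs, 7.28% at 500 UMIs, 31.9% without the top 5% of barcodes and 23.4% with 2 Zbtb16 UMIs required. In IR CD4 it was 4.22%, 2.42% and, with 2 required, 2.12%. The share with Il21 was 0.637% thinned and 3.37% with 2 Zbtb16 UMIs, and that with Klrb1f was 2.10%, 15.2% and, without the top barcodes, 11.97%. The richest cluster was 74.3% and 82.5% Zbtb16-positive at resolutions 0.5 and 2, 83.0% with 1000 variable genes and 84.8% without the top barcodes. Depth limits detection of low genes such as Il21 and the receptor segments.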
